A study of Homo sapiens with 12 samples.

Results

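MicroRNAs are cut from longer transcripts, loaded into Argonaute proteins and then silence mRNAs through deadenylation, decapping and 5′ to 3′ decay. The mRNAs of 38 proteins that carry out these steps were followed in ES-2, an established human ovarian cancer cell line. The genes were listed by name for their known role, with earlier results of these data known and with no measured value in the rule, and all 38 were found among the 57773 gene features of the deposited table, 37 by name and 1, LSM14A, by its identifier. Total RNA was sequenced in 12 libraries, 3 for each of 4 groups: cells given a control siRNA (siC), or a pool of siRNAs (siI1 for IGF2BP1, siI2 for IGF2BP2 and siI3 for IGF2BP3). The IGF2BPs are RNA-binding proteins that attach to many mRNAs and are best known for shielding them from decay, and the series asks how IGF2BP1 bears on miRNA-directed repression. All 4 groups are the same parental cells, and the control also carries a transfected siRNA; each knockdown rests on 1 pool in 1 cell line, and the time after transfection is not stated in the labels. The labels do not tell whether replicates were separate cultures, and the p-values cover the spread among the 12 libraries alone, which may be technical.

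As background, DROSHA with its partner DGCR8 crops the primary transcript in the nucleus, XPO5 (exportin 5) carries the hairpin out, and DICER1, with TARBP2 or PRKRA, cuts it to the duplex from which an Argonaute (AGO1 to AGO4) keeps 1 strand. GW182 scaffolds (TNRC6A to TNRC6C) join Argonaute to the deadenylases PAN2-PAN3 and CCR4-NOT. The decapping enzyme DCP2, with its activators, then removes the cap, and XRN1 degrades the body of the mRNA from its 5′ end.

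Members of this machinery are themselves miRNA targets, and DICER1 is known to be repressed by miR-103 and miR-107. Their mature sequences (RefSeq, GRCh38.p14) are shown with let-7a because the seed, bases 2 to 8 in capitals, is the part that pairs with a 3′ UTR. miR-103a and miR-107 share 1 seed.
hsa-miR-103a-3p: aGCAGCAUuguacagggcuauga
hsa-miR-107: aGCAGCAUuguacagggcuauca
hsa-let-7a-5p: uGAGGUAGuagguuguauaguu

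The 7-base complement of each seed, ATGCTGC for miR-103a and miR-107 and CTACCTC for let-7a, was searched on the transcript strand only, in the longest annotated 3′ UTR of each gene (GENCODE 29, GRCh38). ATGCTGC occurred in 9 of 38 members (23.7%) and in 14.5% of 11346 genes with a UTR. CTACCTC occurred in 4 members, AGO1, AGO2, AGO3 and TARBP2 (10.5%), and in 11% of those genes. The members' UTRs were longer, with a median of 2090.5 bases against 1386. DICER1 held 5 copies of ATGCTGC, capitals below, and none of CTACCTC in a UTR of 4270 bases. AGO2 also held 5 copies of ATGCTGC, with 2 of CTACCTC, in a UTR of 11888 bases, and AGO1 and TNRC6B held 3 copies of ATGCTGC each. The DICER1 copies lie on chromosome 14, minus strand, at chr14:95089458-95089464, chr14:95088857-95088863, chr14:95087653-95087659, chr14:95086382-95086388 and chr14:95086330-95086336.
DICER1 site 1: acacctaaaatATGCTGCagattttataat
DICER1 site 2: tgcttcgtggaATGCTGCatttatatgtaa
DICER1 site 3: cagtcctaactATGCTGCgttttataatag
DICER1 site 4: tttaccatcacATGCTGCagctgtttttta
DICER1 site 5: atacagtaatcATGCTGCagaaatttgcag

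AGO1 held 1 copy of CTACCTC, at chr1:35920692-35920698 on the plus strand, shown because AGO1 and AGO2 are the Argonautes whose levels differ below.
AGO1 let-7 site: ccttattcctcCTACCTCccgccccgccca

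No copy of ATGCTGC overlapped one of CTACCTC in these 38 genes. A match is only a description of letters, and miRNA levels were not analysed here.

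Levels are given in FPM, the authors' normalised value, in which 1 read was worth 0.108 to 0.242 FPM, with 3299360 to 11304060 reads per library. Each target was lower in its own knockdown: IGF2BP1 was at 40.7 to 49.1 FPM in siC and 10.7 to 11.7 in siI1, IGF2BP2 at 74.8 to 83.9 and 9.37 to 19.2 in siI2, and IGF2BP3 at 19.5 to 29.4 and 2.54 to 5.89 in siI3. IGF2BP3 also lay below all controls in siI1 (13.3 to 17.4) and siI2 (11.1 to 18.2). IGF2BP1 in siI2 (53.8 to 58.6) and IGF2BP2 in siI1 (84.1 to 97.1) and siI3 (94.0 to 117) lay above them. None of these differences from siC had an adjusted p under 0.05 (limma). The keratins and vimentin were abundant, while the ovarian markers PAX8 and WT1 reached at most 2.91 and 2.39 FPM. Of the other ovarian or epithelial markers, EPCAM and CDH1 reached at most 0.970 and 1.102 FPM. MUC16 reached 10.6 FPM, in siI3 replicate 3. The leukocyte and erythroid markers reached at most 2.18 and 1.06 FPM. The summed endothelial list was at 55.2 to 72.7 FPM in siC and 96.8 to 150.0 in the knockdowns, nearly all of it CDH5, while VWF and TEK reached at most 3.15 and 0.354. The summed mesenchymal list was at 1692 to 1775 FPM in siC, 2757 to 3138 in siI1, 1444 to 1750 in siI2 and 1108 to 1322 in siI3. Its genes did not go together: in siI1 the mean of SPARC was 2308 FPM against 626 in siC, while VIM was at 484 against 914 and FN1 at 51.8 against 134. U1 RNA took 9.33% to 21.9% of the reads in siC, 3.13% to 13.9% in siI1, 1.401% to 8.37% in siI2 and 1.16% to 12.2% in siI3. The share of 7SL RNA was 9.33% to 13.1% in siC and 12.8% to 24.0% in the knockdowns, and that of the ERCC spike-ins 1.71% to 2.68% and 0.742% to 1.59%. GC-rich and GC-poor genes did not stand alike across libraries: the slope of a gene's deviation was -0.46 and -0.43 log2 units for each 10 points of GC in replicates 1 and 3 of siC and -0.09 to 0.21 in the other 10 libraries. Results are therefore also given after a correction of each library for GC content and transcript length, called corrected values here. The part of these differences in the results was not tested.

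Of the 38 genes, 0 passed the test in siI1, 1 in siI2 and 7 in siI3 when each was compared with siC (limma, adjusted p under 0.05 over 13782 genes). Over all genes tested the shares were 8.18%, 1.51% and 10.6%. In siI3, 1 member rose and 6 fell, where 2.30% and 8.29% of all genes did. After the correction 0, 0 and 4 members passed, beside 6.90%, 1.41% and 6.94% of all genes. In siI1, 8 members (21.1%) had an unadjusted p under 0.05, as did 27.6% of all genes; edgeR called 0 (10.1% of all genes) and DESeq2 called 2, AGO1 and PAN2 (15.5% of all genes). The 3 comparisons share the siC libraries, and AGO1 and GIGYF2, for example, were below siC in all of them.

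The median log2 fold change of the 38 genes was -0.19 in siI1, -0.24 in siI2 and -0.17 in siI3, beside -0.05, -0.09 and -0.05 over all genes. Corrected medians were 0.09, -0.07 and -0.03. The plot of fold changes by role shows both values for each gene.

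**Figure D1:**
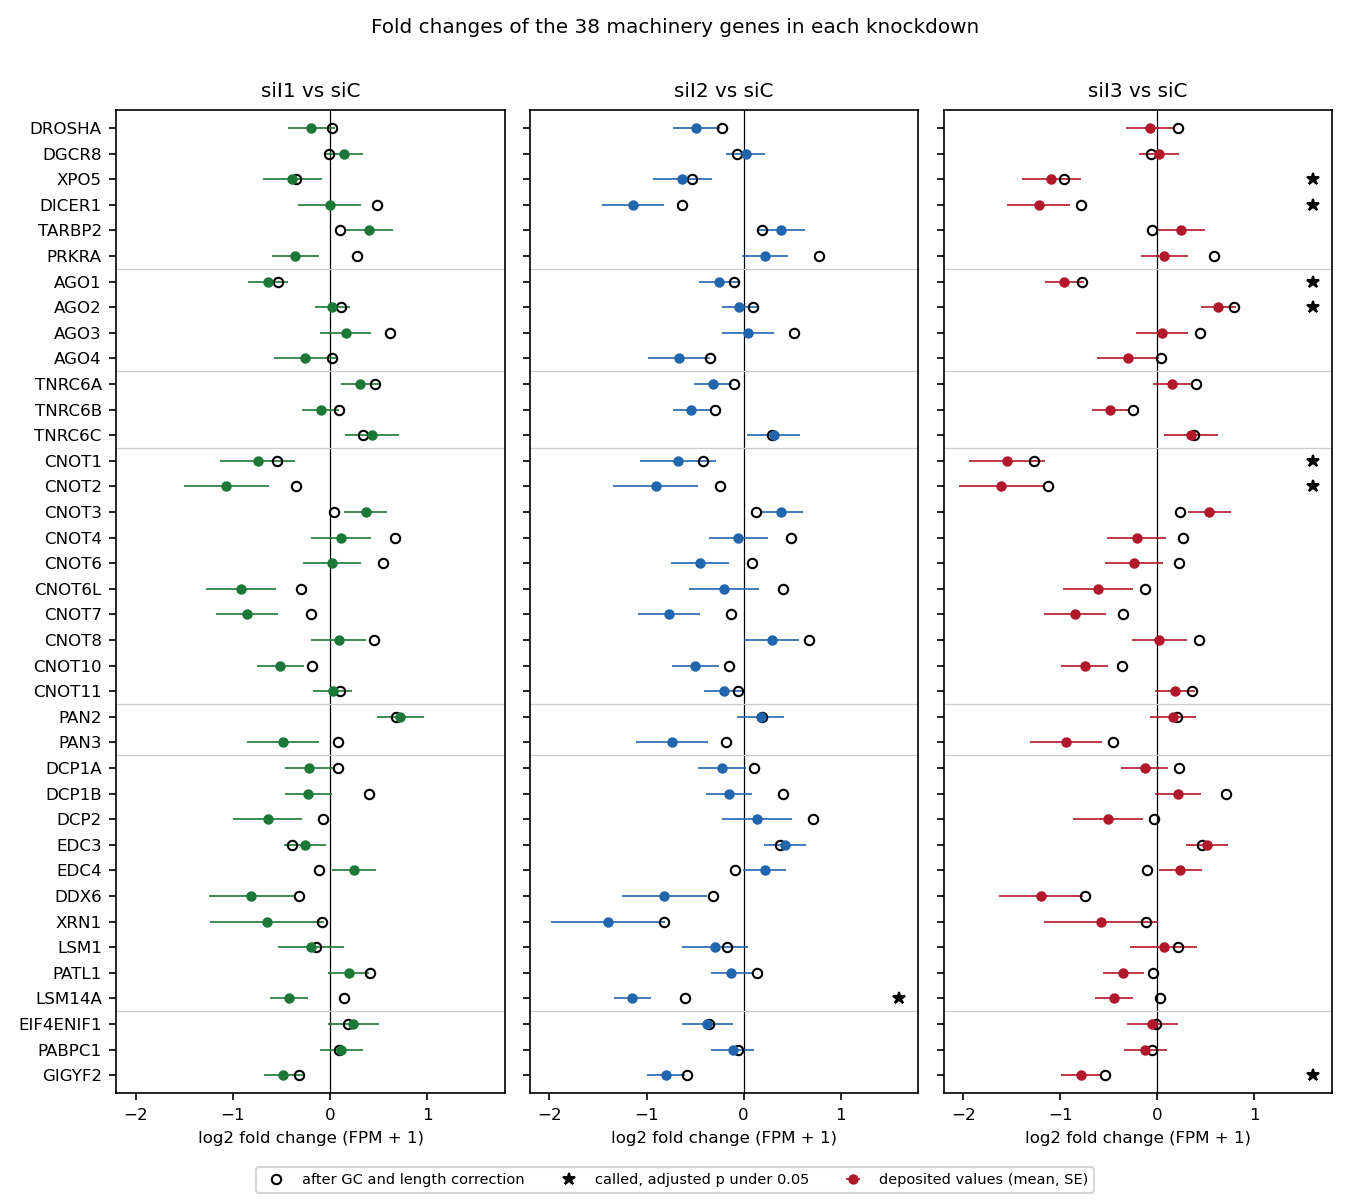
Log2 fold change on log2(FPM + 1) of each of the 38 genes (rows, in order of role) in siI1, siI2 and siI3 against siC. Filled symbols are fitted values with their SE, open symbols the values after correction for GC content and length, and stars mark genes with an adjusted p under 0.05: 0 in siI1, 1 in siI2 and 7 in siI3.

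Of the 6 processing genes, XPO5 and DICER1 fell in siI3 and none passed in siI1 or siI2. DICER1 (ENSG00000100697) was at 24.6, 11.3 and 25.2 FPM in siC replicates 1 to 3 and at 14.4, 23.0 and 21.0 in siI1. It was at 5.11, 9.19 and 11.4 in siI2 and at 8.84, 6.99 and 7.27 in siI3. Replicates 1 and 3 of siC and all siI1 libraries were thus at the higher level, while siC replicate 2 lay below every siI1 library. All siI3 libraries lay below every control, and siI2 replicate 3 crossed the lowest control by a small margin.

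DICER1 fell by 1.22 on the log2 scale in siI3 (SE 0.32, adjusted p = 0.0289), to 37.8% of the control mean. In bulk RNA, fewer cells with a transcript and less of it per cell cannot be told apart. In siI2 its value of -1.14 (SE 0.32) gave an adjusted p of 0.0777, and in siI1 the value was 0.00 with an interval (2 SE) of -0.65 to 0.64. Set against each other, siI1 stood above siI3 by 1.22 (SE 0.32, adjusted p = 0.0295), 1 of 2 members that passed there, beside 7.05% of all genes. Corrected values were -0.78 for siI3 against siC (adjusted p = 0.0567) and 1.26 for siI1 against siI3 (adjusted p = 0.00228). The corrected difference of siI1 from siI2 was 1.12 (adjusted p = 0.0121). The call between siI1 and siI3 was lost in 5 of 12 fits that each left out 1 library (adjusted p up to 0.133).

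XPO5 (ENSG00000124571), the carrier of precursor hairpins, was at 97.5, 75.0 and 84.7 FPM in siC and at 37.5, 27.7 and 58.8 in siI3. The groups did not overlap, and XPO5 fell by 1.09 on the log2 scale (SE 0.30, adjusted p = 0.0341), with a corrected value of -0.96 (adjusted p = 0.0476). The same gene was at 58.4, 84.3 and 55.6 FPM in siI1 and at 52.6, 87.6 and 35.4 in siI2. In each of these knockdowns, replicate 2 was at the control level and the other libraries were below it, and neither knockdown passed.

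The remaining processing genes passed in no comparison. DROSHA, the nuclear nuclease, was at 19.1, 24.8 and 29.8 FPM in siC, 18.8, 28.1 and 17.6 in siI1, 14.7, 17.3 and 19.2 in siI2, and 18.9, 22.1 and 28.5 in siI3. Its siI3 value was -0.08 (interval -0.56 to 0.41). DGCR8 lay between 23.7 and 37.9 FPM in all libraries, with fold changes of 0.14, 0.02 and 0.02. TARBP2, at 45.2 to 87.7 FPM, had 0.41, 0.38 and 0.24, and corrected values of 0.10, 0.18 and -0.06, and its transcript had the highest GC content of the 38, 60.8%. PRKRA, the other DICER1 partner, was low, at 6.56 to 14.3 FPM.

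The Argonautes split. AGO2 (ENSG00000123908), the Argonaute that can itself cut a perfectly paired target, rose in siI3, where AGO1 (ENSG00000092847) fell. AGO2 was at 42.3, 47.6 and 37.9 FPM in siC, 42.9, 42.4 and 44.3 in siI1, and 38.8, 41.0 and 43.9 in siI2. It was at 68.8, 75.8 and 55.5 in siI3, above all 9 other libraries. The 9 others stayed between 37.9 and 47.6 FPM.

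The rise of AGO2 in siI3 was 0.63 on the log2 scale (SE 0.18, adjusted p = 0.0372), to 157% of the control mean, and 0.79 after correction (adjusted p = 0.0209). Against siI1 and siI2 the difference had adjusted p-values of 0.0518 and 0.0698, and of 0.0239 and 0.0473 after correction. Its intervals (2 SE) against siC were -0.33 to 0.38 in siI1 and -0.40 to 0.31 in siI2. AGO2 in siI3 passed in 6 of the 12 fits that left out 1 library, fewer than any other siI3 call.

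AGO1 was at 53.9, 63.7 and 56.4 FPM in siC and at 29.6, 25.7 and 33.3 in siI3, with no overlap. It fell by 0.96 (SE 0.20, adjusted p = 0.0145), and its corrected value was -0.78 (adjusted p = 0.0160), the lowest adjusted p of the 38 genes in that comparison both before and after correction. In siI1 it was at 33.2, 49.4 and 30.4 FPM, below all controls, with a value of -0.64 that did not pass (adjusted p = 0.0625). The siI2 libraries, at 50.7, 50.9 and 43.6 FPM, lay closest to the controls (-0.26, adjusted p = 0.468). After correction AGO1 was also higher in siI2 than in siI3, by 0.68 (adjusted p = 0.0326).

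Because AGO1 and AGO2 moved in opposite directions, the ratio of their FPM separated siI3 from the rest, although it is built from 2 genes chosen with their values known and is given without a test. AGO2 per AGO1 was 0.734 ± 0.0577 in siC, 1.20 ± 0.308 in siI1, 0.858 ± 0.129 in siI2 and 2.31 ± 0.645 in siI3 (SD, n = 3). The lowest siI3 library was at 1.66 and the highest of all others, siI1 replicate 3, at 1.46. The ratio is of reads and not of molecules, since transcript lengths were not used in it.

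**Figure D2:**
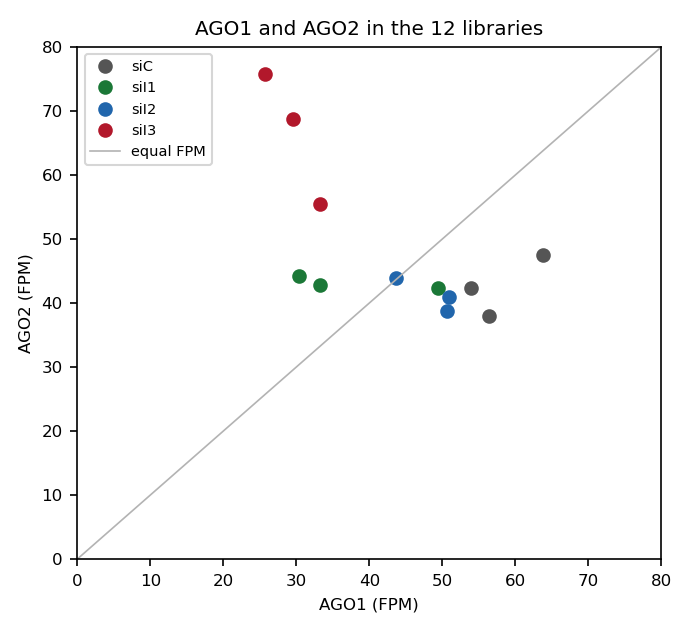
AGO1 (x axis, FPM) against AGO2 (y axis, FPM) in the 12 libraries, 1 point per library, coloured by group, with a line of equal FPM. The 3 siI3 libraries stand alone at upper left, with AGO2 of 55.5 to 75.8 and AGO1 of 25.7 to 33.3, while controls lie below the line.

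AGO3 and AGO4 were scarcer and passed nowhere. AGO3 was at 6.45 to 12.8 FPM, with fold changes of 0.16, 0.04 and 0.05 in siI1, siI2 and siI3. AGO4 was at 2.39 to 7.88 FPM, with -0.26, -0.67 and -0.30. Per kilobase of the longest annotated transcript, siC held 4.23 FPM of AGO1, 2.92 of AGO2, 0.910 of AGO4 and 0.468 of AGO3. Argonaute paralogs, like those of TNRC6, CNOT6 and CNOT7 below, share similar stretches, and no source used here says how reads that fit several places were assigned.

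None of the 3 GW182 scaffolds passed. TNRC6A was at 35.8, 33.1 and 37.2 FPM in siC, 42.9, 51.3 and 38.5 in siI1, 24.5, 25.9 and 35.2 in siI2 and 35.4, 41.7 and 41.3 in siI3. All siI1 libraries lay above all controls and above all siI2 libraries, but the differences, 0.31 and 0.62, had adjusted p-values of 0.315 and 0.120. TNRC6C was at 5.57, 7.12 and 8.39 FPM in siC and 11, 8.96 and 9.23 in siI1, again apart, with 0.43 (adjusted p = 0.318). Its siI2 libraries were at 7.03, 6.98 and 13.8 and its siI3 libraries at 7.72, 9.91 and 9.92. TNRC6B went the other way, with siI2 (24.3 to 28.6 FPM) and siI3 (25.7 to 27.5) below the controls (32.9 to 45.5) and values of -0.54 and -0.48 (adjusted p = 0.127 and 0.106).

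CCR4-NOT is the main cytoplasmic deadenylase. Of its 10 members listed, CNOT1 and CNOT2 fell in siI3, and none passed in siI1 or siI2. CNOT1 (ENSG00000125107) is the scaffold on which the complex is built, and CNOT2 (ENSG00000111596) binds it with CNOT3 to form the NOT module. CNOT1 was at 136, 85.2 and 122 FPM in siC and at 25.5, 26.0 and 79.4 in siI3. In siI1 it was at 53.6, 99.1 and 55.4, and in siI2 at 63.2, 113 and 48.3. siI3 replicate 3, siI1 replicate 2 and siI2 replicate 2 were each far above the others of their group and near or above siC replicate 2, and the 3 knockdowns overlapped. Within each knockdown XPO5 was highest in the same library, and so were, among other members, CNOT2, DDX6 and AGO1. For AGO1 in siI2 the margin was small (50.9 against 50.7 FPM). DICER1, AGO2 and GIGYF2, which also passed in siI3, did not share this order. The share of U1 RNA was highest in these libraries too: 13.9% of reads in siI1 replicate 2 (6.14% and 3.13% in the others) and 8.37% in siI2 replicate 2 (7.69% and 1.401%). In siI3 replicate 3 it was 12.2% (1.16% and 1.23%). The part of the U1 share in the values of these genes was not tested.

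CNOT1 fell by 1.55 in siI3 (SE 0.39, adjusted p = 0.0251), and its corrected value was -1.27 (adjusted p = 0.0396). CNOT2 was at 29.7, 18.4 and 41.3 FPM in siC and at 6.59, 5.21 and 17.9 in siI3. Its siI1 libraries were at 13.2, 17.0 and 9.74 and its siI2 libraries at 17.9, 24.3 and 7.03. CNOT2 fell by 1.61 in siI3 (SE 0.44, adjusted p = 0.0322), the largest fold change of the 38 genes in that comparison. The corrected value, -1.13, did not pass (adjusted p = 0.116). At 34.1%, its transcript had the lowest GC content of all members.

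**Figure D3:**
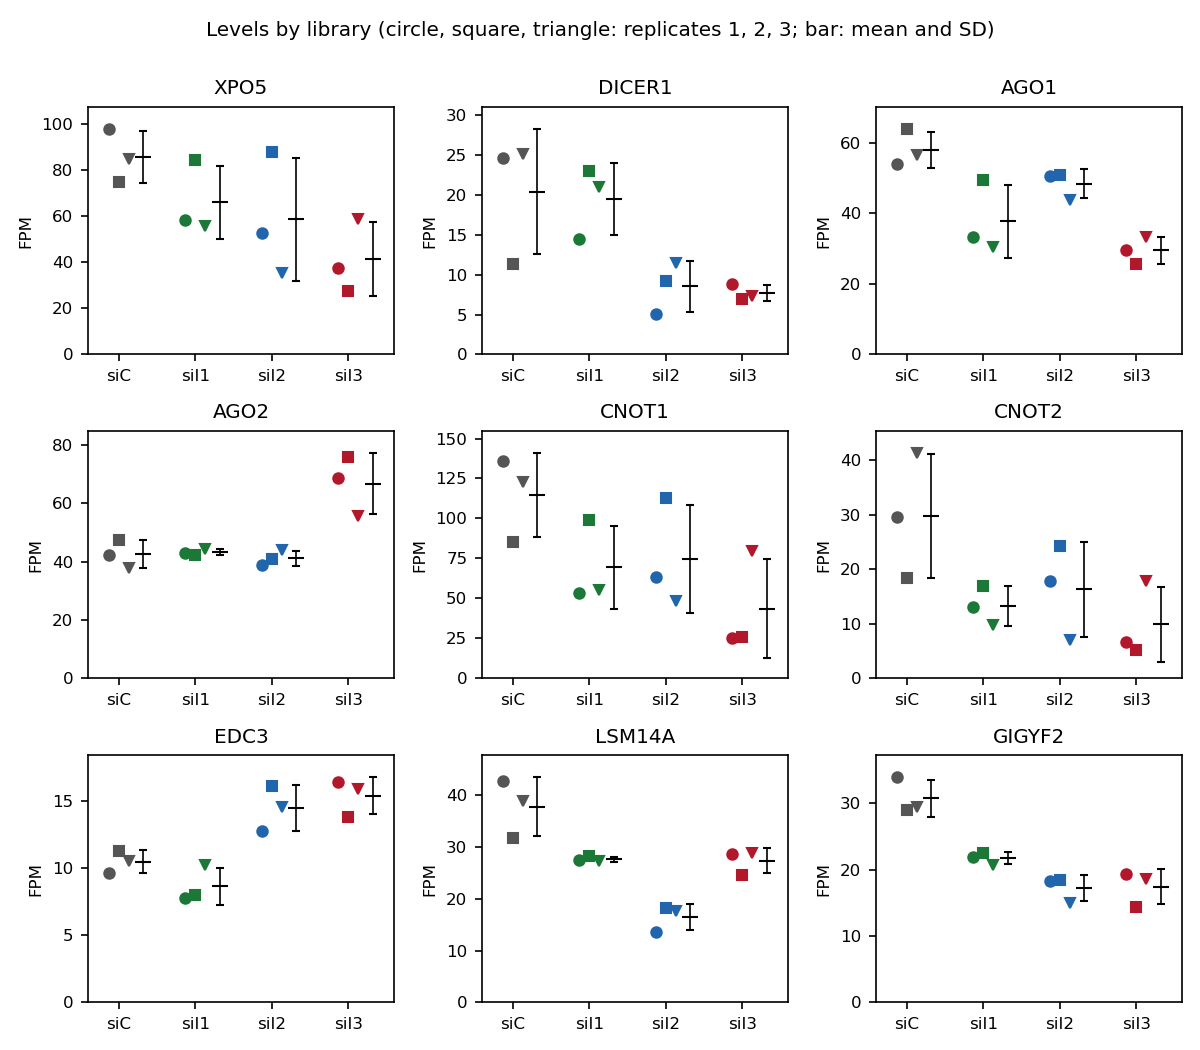
FPM (y axis, from 0) by library of the 9 genes that passed in any of the 6 comparisons, with replicates as symbols and the mean and SD beside them. AGO2 is high only in the 3 siI3 libraries, LSM14A is lowest in siI2, and CNOT1 and XPO5 each have 1 high library in every knockdown.

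CNOT3, the third NOT-module protein, did not follow its partners. It was at 13.9, 21.9 and 25.4 FPM in siC, 26.6, 28.6 and 22.7 in siI1, 24.3, 25.9 and 28.9 in siI2 and 26.7, 31.3 and 29.8 in siI3. The siI3 libraries lay above all controls, with 0.53 (adjusted p = 0.120) and a corrected 0.23; its transcript is GC-rich, at 58.7%. CNOT10 and CNOT11 form a further module. CNOT10 was at 21.5 to 26.7 FPM in siC and at 13.7 to 14.3 in siI3 without overlap (-0.75, adjusted p = 0.0577, corrected -0.36), whereas CNOT11 was at 52.1 to 62.0 and 59.9 to 70.2 (0.18).

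The catalytic subunits come in pairs of paralogs, CNOT7 with CNOT8 and CNOT6 with CNOT6L, that can replace each other in the complex. CNOT7 had negative values of similar size in all 3 knockdowns, -0.86, -0.77 and -0.85, none of which passed (adjusted p = 0.0976, 0.171 and 0.0916), and corrected values of -0.20, -0.13 and -0.36. CNOT8 had 0.09, 0.29 and 0.02. CNOT6L was near the detection limit, at 5 to 36 reads per library. It was at 3.48, 1.51 and 4.87 FPM in siC, 1.71, 0.959 and 0.855 in siI1, 1.49, 2.94 and 3.39 in siI2, and 1.12, 1.52 and 2.48 in siI3. Its siI1 value was -0.92 (adjusted p = 0.118), while CNOT6, at 5.11 to 11.9 FPM, had 0.02. CNOT4, a ubiquitin ligase that joins the complex loosely, was at 6.81 to 18.2 FPM with 0.11, -0.05 and -0.21.

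PAN2 and PAN3, the catalytic and RNA-binding parts of the deadenylase that acts first on long tails, stood apart from each other without passing. PAN2 was at 15.4, 13.2 and 17.9 FPM in siC and at 22.8, 30.9 and 25.1 in siI1, with no overlap. Its siI2 libraries were at 23.0, 17.6 and 13.1 and its siI3 libraries at 15.3, 16 and 21.1. In siI1 the value of 0.73 (SE 0.24) was the largest positive fold change of the 38 genes, with an adjusted p of 0.0677 and a corrected value of 0.68 (adjusted p = 0.0668). DESeq2 did call it, with 0.80 (adjusted p = 0.0216). PAN3 was at 11.2, 5.82 and 9.07 FPM in siC, 3.57, 8.64 and 5.98 in siI1, 5.96, 7.17 and 2.18 in siI2 and 4.63, 3.30 and 3.90 in siI3. All siI3 libraries lay below the controls, with -0.94 (adjusted p = 0.104) and a corrected -0.46.

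Among the 10 decapping and 5′ to 3′ decay genes, LSM14A fell in siI2, and EDC3 differed between siI1 and siI3. LSM14A (ENSG00000257103) is a component of P-bodies, the granules in which repressed mRNAs and decay factors gather, and it binds DDX6 and the cap-binding partner EIF4ENIF1. LSM14A was at 42.7, 31.6 and 38.8 FPM in siC, 27.5, 28.1 and 27.2 in siI1, 13.6, 18.2 and 17.7 in siI2 and 28.6, 24.5 and 28.7 in siI3. In these deposited values the controls were on top, siI1 and siI3 in the middle and siI2 at the bottom, and no siI2 library reached any library of another group.

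LSM14A fell by 1.14 in siI2 (SE 0.19, adjusted p = 0.00776), to 43.8% of the control mean. This was the lowest adjusted p of the 38 genes in any comparison. Against siI1 and siI3, siI2 differed by 0.72 and 0.70 on the log2 scale (limma, adjusted p = 0.0653 and 0.0846). In either comparison 0 members passed, beside 2.40% and 2.00% of all genes. Between siI1 and siI2, 9 members (23.7%) had an unadjusted limma p under 0.05, beside 14.3% of all genes. Between siI2 and siI3 it was 5 (13.2%), beside 14.5%. With edgeR 0 were called in both (2.19% and 2.00% of all genes), and DESeq2 called 0 and 2, AGO1 and AGO2 (3.95% and 4.38%). After correction 3 members passed in each, DICER1, EDC3 and LSM14A between siI1 and siI2 and AGO1, AGO2 and LSM14A between siI2 and siI3, beside 4.86% and 3.82% of all genes. The correction reduced the difference from siC to -0.60 (adjusted p = 0.0745) and left those from siI1 and siI3 at 0.75 and 0.63 (adjusted p = 0.0112 and 0.0326). In these corrected values the controls came to 26.3 to 31.8 FPM, siI1 to 29.9 to 33.8, siI3 to 26.1 to 30.3 and siI2 to 16.7 to 20.8. The order of the other 3 groups thus did not hold: against siC, siI1 went from -0.43 to 0.14 and siI3 from -0.45 to 0.03, none past the test, and siI2 alone stayed below.

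EDC3 (ENSG00000179151), a scaffold that activates DCP2, was at 9.62, 11.3 and 10.6 FPM in siC and 7.76, 8.0 and 10.3 in siI1. It was at 12.8, 16.2 and 14.5 in siI2 and 16.4, 13.8 and 15.9 in siI3. The siI2 and siI3 libraries lay above all of siC and siI1. EDC3 was lower in siI1 than in siI3 by 0.77 (SE 0.22, adjusted p = 0.0409; corrected -0.85, adjusted p = 0.0102), and that call held in 4 of the 12 fits with 1 library left out. Against siC the values were -0.26, 0.43 and 0.51, none past the test. DICER1 and EDC3 were the 2 members that differed between siI1 and siI3, in opposite directions; AGO2 joined them in edgeR, in DESeq2 and after correction (3 members in each, beside 7.28%, 10.1% and 11.7% of all genes).

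The decay enzymes themselves did not pass. DCP2 was at 18.0, 6.47 and 10.7 FPM in siC, 7.61, 6.08 and 6.15 in siI1, 7.45, 11.8 and 19.4 in siI2 and 9.12, 8.26 and 5.14 in siI3. XRN1 was at 9.28, 2.91 and 15.3 FPM in siC, 4.35, 5.44 and 3.93 in siI1 and 3.65, 4.32 and 6.91 in siI3. In siI2 it was listed at 0 in replicate 1, where 3 reads would be 0.639 FPM, and at 5.14 and 4.85 in the others. Both genes spread widely within groups, siC included. The siI2 value of XRN1, -1.40 (SE 0.59), was the largest fall in that comparison by size but had an adjusted p of 0.176, with siC replicate 2 below every knockdown library but the one at 0 and the 0 entering through the pseudocount.

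DDX6, the helicase that links CCR4-NOT to decapping, had -0.81, -0.82 and -1.20 (adjusted p = 0.238, 0.275 and 0.0852). Its siC libraries were at 34.4, 10.6 and 33.6 FPM, so that replicate 2 sat among the knockdowns. EDC4, the large decapping scaffold, was at 63.8 to 112 FPM with 0.25, 0.22 and 0.24 and corrected values of -0.11, -0.08 and -0.10. DCP1A, DCP1B, LSM1 and PATL1, which are decapping activators, had fold changes between -0.35 and 0.21.

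GIGYF2, which with a cap-binding partner represses translation, was the 1 gene of the remaining 3 to pass. GIGYF2 (ENSG00000204120) was at 33.9, 28.9 and 29.4 FPM in siC, 21.9, 22.5 and 20.7 in siI1, 18.3, 18.4 and 15.0 in siI2 and 19.4, 14.4 and 18.6 in siI3. Every knockdown library lay below every control. It fell by 0.79 in siI3 (SE 0.20, adjusted p = 0.0243), and had -0.80 in siI2 (adjusted p = 0.0522) and -0.48 in siI1 (adjusted p = 0.131). Corrected values were -0.54, -0.58 and -0.32, with adjusted p-values of 0.0539, 0.0963 and 0.253. PABPC1, the poly(A)-binding protein, was the most abundant of the 38 per kilobase in siC, at 78.1 FPM, against 0.371 for CNOT6L, the lowest. PABPC1 had 0.12, -0.11 and -0.12, and EIF4ENIF1, the eIF4E transporter, 0.24, -0.37 and -0.05.

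Groups that did not overlap were counted as a further description. In siI1, 3 members lay wholly above the controls and 6 below, beside 15.2% and 17.6% of all genes. In siI2 it was 1 and 5 (7.72% and 12.3% of all genes), and in siI3 3 and 10 (9.25% and 20.0%). AGO1, LSM14A and GIGYF2 lay below the controls in all 3 knockdowns, which share those controls. After correction this held for GIGYF2, whereas AGO1 in siI2 and LSM14A in siI1 and siI3 overlapped the controls. The share of all genes that lay below the controls in all 3 knockdowns was not counted. These genes are thus named as a description, not as a result about the members.

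Fold changes of the members varied with the GC content of their transcripts. The median GC content was 44.9% for the members and 49.1% for all genes tested, and the median length 5334.5 bases against 3408. In siI3, the 19 members of lower GC content had a median of -0.48 and the other 19 one of 0.07, and after correction both lay near 0 (-0.04 and -0.02). That loss is largely built in, since the correction subtracts a trend with GC content fitted to these same values over all genes. The 19 of lower GC content held 2 of the 6 falls, and the other 19 held 4 and the 1 rise. All 7 called genes had a GC content below the median of all genes tested, from 34.1% (CNOT2) to 49.0% (XPO5). Most of the 38 members did too, so this does not set the called genes apart, and XPO5 lay close to that median. The part of GC content in these calls was not tested. Of the 7 siI3 calls, AGO1, AGO2, XPO5 and CNOT1 passed after correction, whereas DICER1, GIGYF2 and CNOT2 did not. All 7 were lost when siC replicate 1, siC replicate 3, siI3 replicate 1 or siI3 replicate 2 was left out, and the authors' deposited table has 0 of the 38 under an FDR of 0.05 in any knockdown (lowest 0.114, AGO1 in siI3), beside 0.791%, 0.180% and 0.460% of its features.

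**Figure D4:**
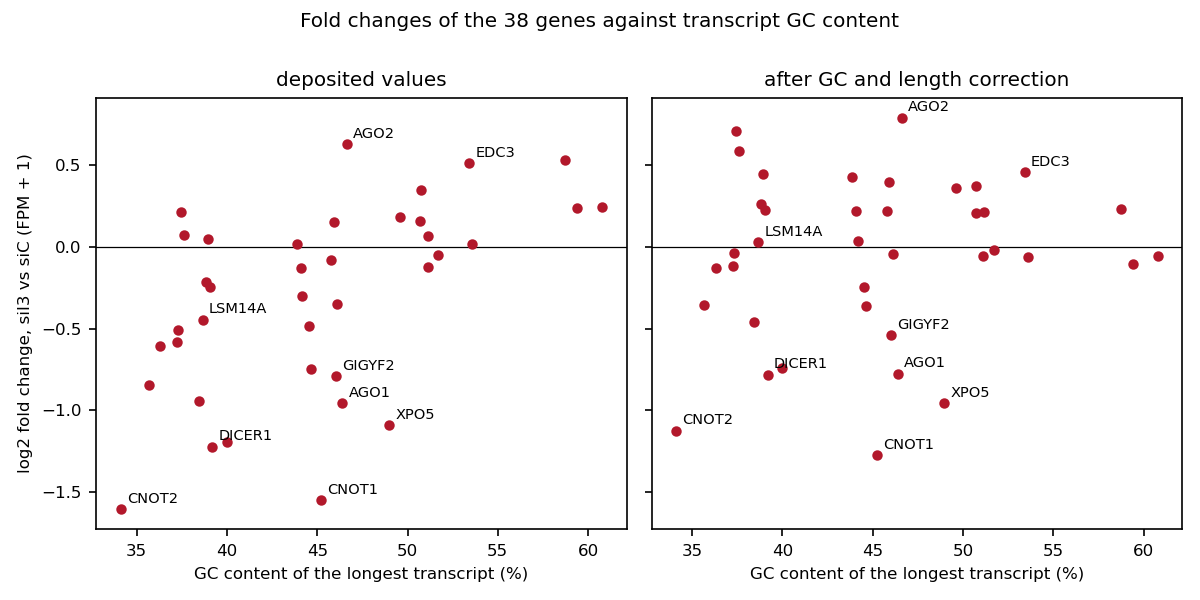
Log2 fold change in siI3 against siC (y axis) against the GC content in percent of each gene's longest transcript (x axis), 1 point per member, from deposited values (left) and after correction (right); the 9 genes that passed in any comparison are named. On the left the points rise with GC content, and on the right AGO2 stands highest and CNOT1 lowest without that slope, which the correction is made to remove.

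Genes that work beside the 38 were followed in 4 lists. Over all genes tested, 3.77% rose and 4.42% fell in siI1, 0.573% and 0.936% in siI2 and 2.30% and 8.29% in siI3. Of the regulators of miRNA maturation, 19 of 22 were tested: 2 fell in siI1, none passed in siI2 and 2 fell in siI3. In siI1 they were TUT7, which adds uridines to precursors (-1.22), and HNRNPA1 (-1.03). In siI3 they were RAN, the small GTPase that drives export by XPO5 (-1.35), and HNRNPA1 (-0.76). TUT7 in siI1 overlapped siC, with replicate 2 at 5.44 FPM against 5.07 in siC replicate 2. The list's medians were -0.32, -0.26 and -0.42, and 0.00, -0.02 and -0.10 after correction. RAN passed in siI3, as XPO5 did, and its corrected value, -0.92, also passed (adjusted p = 0.0389). It was at 957, 444 and 1137 FPM in siC and 372, 285 and 274 in siI3. In siI1 RAN was at 376, 402 and 433 FPM, also below all controls but without passing. Its siI2 libraries, at 390, 778 and 357 FPM, overlapped the controls. A link between RAN and XPO5 was not tested. HNRNPA1 passed after correction in siI1 (-0.65, adjusted p = 0.0238) but not in siI3 (-0.35, adjusted p = 0.185), and TUT7 did not (-0.76, adjusted p = 0.127); KHSRP passed in siI1 after correction only (-0.47, adjusted p = 0.0425).

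Among cofactors of Argonaute loading and silencing, 25 of 26 were tested, and 2 rose and 2 fell in siI1, 0 passed in siI2 and 2 fell in siI3. AJUBA, a LIM protein that binds Argonautes, rose by 1.27 in siI1 (SE 0.19, adjusted p = 0.000915), from 90.4 ± 12.3 to 218 ± 4.65 FPM (SD, n = 3), and was called in 12 of 12 fits that left out 1 library and after correction (1.15). The helicase MOV10 rose by 0.75 (adjusted p = 0.0451), a call lost after correction (0.49, adjusted p = 0.0856). The chaperones HSP90AA1 (-2.08) and DNAJA2 (-1.15) fell in siI1, and HSPA8 (-1.53) and DNAJA2 (-1.11) in siI3. HSP90AA1 was at 158, 37.2 and 168 FPM in siC and 15.2, 42.1 and 18.5 in siI1, so these groups overlapped. Such chaperones open the Argonaute for the small RNA duplex, and several have near-identical pseudogenes. HSP90AA1 was the only one of these chaperone calls that passed after correction (-1.80), while STIP1 (-0.65) and HSP90AB1 (-0.48) passed in siI1 after correction only. The list's medians were -0.15, -0.18 and -0.18, and -0.12, -0.19 and -0.23 after correction.

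Of 33 deadenylation adaptors and related nucleases, 30 were tested. EIF4A2 (-1.71) and ANGEL2 (-1.03) fell in siI1, and BTG3 (-2.22), a CCR4-NOT adaptor, fell in siI2. EIF4A2 (-2.35), PARN (-1.15) and CNOT9 (-0.79) fell in siI3, where SAMD4A rose (0.61). EIF4A2 was at 106, 35.3 and 84.3 FPM in siC and 15.1, 36.6 and 14.5 in siI1, so these groups overlapped. CNOT9 is the subunit of CCR4-NOT that GW182 proteins contact, and it fell in the knockdown in which CNOT1 and CNOT2 did. Corrected values passed for BTG3 (-1.81), PARN (-0.80), EIF4A2 in siI3 (-1.87) and SAMD4A (0.80), and not for CNOT9 (-0.56, adjusted p = 0.0588), nor in siI1 for EIF4A2 (-1.15, adjusted p = 0.110) and ANGEL2 (-0.47, adjusted p = 0.211). SAMD4B passed in siI1 after correction only (-0.67, adjusted p = 0.0101). The list's medians were -0.16, -0.14 and -0.04, and 0.08, 0.09 and 0.01 after correction.

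In the list of LSM ring, exosome and other decay factors, 41 of 43 were tested, with 1 rise and 3 falls in siI1, none in siI2 and 7 falls in siI3. PNRC1, a coregulator that binds decapping factors, rose by 1.25 in siI1 (adjusted p = 0.00733, corrected 1.47), from 15.7 ± 4.69 to 37.5 ± 1.43 FPM (SD, n = 3). TTC37 of the Ski complex, which feeds mRNA to the exosome, fell by 1.96 in siI1 and by 2.33 in siI3, and the exosome subunit EXOSC8 by 1.66 and 1.92. Both overlapped siC in siI1. There replicate 2 was at 14.6 FPM for TTC37 and 5.92 for EXOSC8, against 11.6 and 4.42 in siC replicate 2. The helicase DDX3X fell by 1.05 in siI1, and MEX3C (-1.36) and EXOSC9 (-1.25) fell in siI3. After correction 1 gene, PNRC1, passed in siI1 and 2, TTC37 (-1.87) and EXOSC8 (-1.43), in siI3. The list's medians were -0.41, -0.43 and -0.21, and -0.15, -0.10 and -0.06 after correction.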

How the data were processed

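Total RNA of 12 ES-2 libraries was depleted of ribosomal RNA, reverse transcribed with random hexamers and sequenced in pairs, per the labels' protocols. Per the submitters' processing notes, cutadapt 1.6, TopHat2 2.0.13, featureCounts 1.4.6 and edgeR 3.12 were used with the hg19 build; no source used here gives strand or multi-read settings. Per the file headers, the authors deposited FPM (a normalized signal) with their own log2 fold change and FDR (an adjusted p-value), printed here only where credited to the authors' deposited table. All FPM values (100%) were whole multiples of 1 read within 0.01, and these recovered counts, 3299360 to 11304060 per library, served to filter genes (filterByExpr, minimum count 10; 13782 left) and for edgeR and DESeq2. Depth limits low genes: 3 reads were 0.324 to 0.727 FPM.

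The main test was limma 3.58.1 (R 4.3.3) with a trend on log2(FPM + 1), which understates changes of low genes, over all 12 libraries, with Benjamini-Hochberg adjustment over all genes tested and a threshold of 0.05. It was also run on simulated counts that had no GC slope, so that run cannot show how the test behaves with the slopes seen here. The correction subtracted from each library a loess surface (span 0.5) fitted over transcript GC content and length (longest in GENCODE 29; 13570 genes, 98.5%). Alternatives were edgeR 4.0.16, DESeq2 1.42.0, pseudocounts 0.25 and 4, other filters and scaling factors, the replicate number as a block, only the 6 libraries compared, and each library left out. The members, lists and tests were chosen with earlier results of these data known. Given by library are genes called in any comparison, a core gene per step, and the 2 largest rises and falls per knockdown; of each neighbouring list, up to 4 called genes per comparison. Genes not covered by the rule are given by range.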

Additional observations from a re-analysis of the deposited data

How the results depend on the processing

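The count of members called against siC was 0 in siI1, 1 in siI2 and 7 in siI3. In siI1 it became 2 with DESeq2 and with only the 6 libraries compared, and 0 to 3 when each library was left out in turn. In siI2 it became 3 with DESeq2, 2 with a pseudocount of 4 and with a filter at a mean of 5 FPM, and 0 with scaling by total reads, with only 6 libraries, with the GC and length correction and with that correction and the replicate block. With 1 library left out it was 0 to 6, with 0 without replicate 1 or 3 of siC or replicate 1 of siI2. In siI3 it became 9 with DESeq2, which called the 7 and also CNOT10 and DDX6, 8 with the filter at a mean of 5 FPM, 6 with only 6 libraries, 4 with edgeR, with the replicate block and with the correction, 2 with the replicate block and the correction together, and 1 with no filter and with scaling by total reads. Leaving out 1 library gave 0 to 10, with 0 without replicate 1 or 3 of siC or replicate 1 or 2 of siI3.

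Between siI1 and siI2 the count of 0 became 3 with the correction, with or without the replicate block, and 0 to 1 with 1 library left out. Between siI1 and siI3 the count of 2 became 3 with edgeR, DESeq2, a pseudocount of 4, the filter at a mean of 5 FPM, RLE size factors and the correction, with or without the replicate block, and 0 with no filter, 1 with scaling by total reads, with the replicate block and with only 6 libraries, and 0 to 3 with 1 library left out. Between siI2 and siI3 the count of 0 became 2 with DESeq2, 1 with size factors of the RLE method, 3 with the correction, 1 with the replicate block and the correction, and 0 to 2 with 1 library left out. No alternative turned the direction of a called member, though values that did not pass could turn, such as LSM14A in siI1. The count of all genes called depended on the setting too. Over all comparisons and alternatives, judged by 1 rule, it moved in 64 fits and stayed the same or similar in 80. The count of members moved in 49 and stayed the same or similar in 95. The shifts are therefore not particular to the members, and their cause was not tested.

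Pooled over all groups, deviations of same-numbered libraries correlated at -0.45 to 0.45 (median -0.05, 18 pairs), those of others at -0.32 to 0.43 (median 0.07, 36 pairs). Pairs of groups differed. Between siI1 and siI2 same-numbered libraries correlated at 0.19, 0.45 and 0.18, above the others. Between siC and siI1 they were at -0.26, -0.34 and -0.09, and between siC and siI2 at -0.21, -0.45 and -0.01. Whether replicate numbers pair libraries is not stated in the labels. With 3 libraries a group, 83 values of called or named members lost their call under an alternative, 10 gained one, 22 without a call in either fit moved by more than the replicate SD, all of them with the correction except CNOT6L in siI1 with edgeR (-1.44) and DESeq2 (-1.44), and 796 kept their call or, with none in either fit, moved by less than that SD.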
